A study of Bos taurus with 20 samples.

Results

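Messenger RNA of the protein folding machinery was followed in bovine embryos at day 14, in 4 groups of samples. The gene set was defined by symbol alone: the protein-coding HSPA, HSPB, HSPD, HSPE, HSPH and HSP90 genes, the DNAJA, DNAJB and DNAJC genes, the CCT genes with TCP1, the PDIA genes, CALR and CANX, without HSPG2 and HSPBAP1. It held 82 of the 15542 genes listed. No measured value entered the rule, but the set was chosen with earlier results of these data known. By the known place of their proteins, 46 were grouped as cytosolic (nucleus included), 19 as proteins of the endoplasmic reticulum (ER), 8 as mitochondrial and 9 under no single place. In all, 69 of the 82 had enough reads to be tested (at least 10 in at least 2 libraries): 36 cytosolic, all 19 of the ER, all 8 mitochondrial and 6 others. The remaining 13 never exceeded 38 reads in a library. They were the HSP70 genes HSPA1L, HSPA6, HSPA12A and HSPA12B, the HSP110 gene HSPA4L, the small heat shock gene HSPB2, the J protein genes DNAJA4, DNAJB3, DNAJB7, DNAJB8, DNAJC6 and DNAJC12, and CCT8L2, for which no place was assigned.

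Whole embryos gave 2 vitrified and 6 fresh samples. Trophectoderm (TE) was isolated in 7 samples from vitrified embryos and in 5 from fresh ones. Vitrified embryos had been cryopreserved by cooling to a glass, fresh ones had not, and all were recovered from the uterus at day 14. The submitters' design counts 9 vitrified and 12 fresh embryos. The labels do not give the stage at which embryos were vitrified, and do not tie samples to single embryos or say whether samples were pooled, or the breed of the animals, and p-values therefore measure only the spread between these samples, which may be partly technical. TE is the outer epithelium that will form the placenta. At this age in cattle it elongates and secretes large amounts of protein, among them interferon tau. A whole embryo also holds epiblast and hypoblast. In such bulk samples, fewer cells of a type and less RNA per cell cannot be told apart.

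Chaperones of the HSP70 family bind exposed hydrophobic stretches of unfolded proteins and release them on ATP turnover, J proteins (the DNAJ genes) bring clients to HSP70 and trigger that turnover, and HSP110 and related factors exchange its nucleotide. HSP90 acts later on partly folded clients such as kinases and receptors, and the ring-shaped chaperonin TRiC, built from 8 different subunits, folds actin and tubulin. Misfolded protein in the cytosol switches on HSF1 targets such as HSPA1A, DNAJB1 and HSPB1. Misfolded protein in the ER switches on the unfolded protein response, which raises HSPA5, HSP90B1, PDIA4 and other ER folding genes, and mitochondria keep a set of their own, HSPA9, HSPD1 and HSPE1.

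Levels are given in RPKM, reads per kilobase of the gene's genomic span (introns included), after division by the library size in M (1 M is 1000000 reads). They cannot be compared between genes, and comparisons between samples depend on the scaling, as set out below. Libraries held 6.01 to 14.5 M reads. Gene positions refer to UMD3.1. In several measures the 5 fresh TE libraries were unlike the remaining 15. Listed genes took 33.8 to 40.3% of their reads, against 57.5 to 63.9% in the others. Fresh TE libraries 1 and 2, and likewise 3 and 4, were nearly alike. Their counts differed by 1.88 and 1.48 times the counting variance, against 11.9 to 22.6 times for other fresh TE pairs and 6.89 to 62.9 times within the other groups. Of the 12 TE markers listed, KRT8, KRT18 and KRT19 were found in every library, at 141 RPKM or more. EOMES never passed 0.1997 RPKM, and TEAD4 stood at 0 to 0.0196 RPKM in fresh TE. Of the 11 TE markers tested, 7 were higher and 2 lower in vitrified than in fresh TE (69.0% and 6.66% of all genes tested). In fresh whole embryos against fresh TE 4 were higher and 5 lower (60.0% and 5.97%). The summed level of 7 epiblast markers was 13.3 to 41.9 RPKM in vitrified TE and 0.0317 to 0.546 in fresh TE, and that of 7 hypoblast markers was 589 to 1251 RPKM in vitrified TE and 149.8 to 322 in fresh TE. ZFP42 made up most of the epiblast sum and APOA1 most of the hypoblast sum, while NANOG never passed 0.174 RPKM in vitrified TE or 0.0741 in fresh TE. Of 3 blood and immune markers tested, 2 were higher and 1 lower in vitrified than in fresh TE. The macrophage marker AIF1 stood at 0.341 to 1.104 RPKM in vitrified TE and 8.83 to 15.3 in fresh TE. CD68 ran the other way, at 1.64 to 4.50 RPKM in vitrified TE and 0.217 to 0.563 in fresh TE. So did HBA, at 0.927 to 1.88 RPKM in vitrified TE and 0 to 0.217 in fresh TE. The summed level of 4 markers of the endometrium never passed 1.15 RPKM. How far these differences bear on the chaperone genes was not tested.

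Because most genes differed between the TE groups, each change was read at 4 scalings: as deposited, with scaling to the library's listed-gene reads, by median-ratio scaling and by quantile normalization. Of the genes tested, the median one had a mean 2.446-fold higher in vitrified than in fresh TE, 1.30-fold higher in vitrified than in fresh whole embryos, and 2.18-fold higher in fresh whole embryos than in fresh TE. Tests used limma on log2(RPKM + 1) with Benjamini-Hochberg adjustment over 10599 genes and a threshold of 0.05. Log2 changes in the text are on that scale, which understates changes of low genes. Fold values are ratios of group means in RPKM.

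As a share of listed-gene reads, which a factor applied to a whole library does not alter, the 82 genes took 3.16 to 3.24% in the 2 vitrified whole embryos, against 2.44 to 2.69% in the 6 fresh ones. They took 2.61 to 3.03% in vitrified TE, against 2.43 to 2.65% in fresh TE. The whole embryo groups did not overlap and the TE groups did. Cytosolic members accounted for most of these reads, with 2.25 to 2.32% in vitrified whole embryos, against 1.67 to 1.85% in fresh ones. In TE they took 1.79 to 2.05% after vitrification, against 1.66 to 1.75% in fresh TE, again without overlap. The ER members took 0.540 to 0.677% in vitrified whole embryos, against 0.369 to 0.438% in fresh ones, and 0.469 to 0.671% in vitrified TE, against 0.463 to 0.505% in fresh TE. The summed reads of the mitochondrial members ran the other way in whole embryos, with 0.283 to 0.292% after vitrification, against 0.320 to 0.410% in fresh ones. In TE they overlapped, with 0.262 to 0.358% in vitrified TE, against 0.304 to 0.387% in fresh TE. HSPE1, HSPD1 and HSPA9 held most of these reads, so the share says little of the others. Of the 8 mitochondrial members, 2 were higher (DNAJA3 and DNAJC11) and 1 lower (HSPE1) in vitrified whole embryos as deposited, with 26.9% and 3.94% over all genes.

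In vitrified against fresh TE, 47 of the 69 tested members were higher and 6 lower as deposited, where 69.0% of all genes tested were higher and 6.66% lower. Under all 4 scalings, 18 members were higher and 6 lower, where the shares over all genes were 25.4% and 6.66%. All 706 genes lower as deposited were also lower under all 4 scalings. Holding under all 4 scalings therefore adds nothing to a lower call in this comparison. Among the 18, HSPB6, DNAJB5, DNAJC4 and DNAJC22 had at most 10 reads in each fresh TE library. As deposited the members' counts were thus close to the background. The split depended on the scaling, with 34 higher and 18 lower with scaling to listed-gene reads (49.4% and 15.7% of all genes), 21 and 28 under median-ratio scaling (35.2% and 27.4%), and 20 and 29 under quantile normalization (26.2% and 38.7%). Groups did not overlap for 43 of the 69 members, where 58.6% of all genes had separate groups. Leaving out HSPB6, which had 0 or 1 read in each fresh TE library, ratios of means ran from 27.95 for HSPB1 to 0.570 for DNAJB11.

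In vitrified against fresh whole embryos, 22 members were higher and 3 lower, with 26.9% and 3.94% over all genes. Groups did not overlap for 30 members (36.0% of all genes), and 7 and 2 held under all 4 scalings (7.87% and 3.11%). Without vitrified whole embryo 2, 8 members were higher and none of the 3 lower ones passed. Without vitrified whole embryo 1, 18 were higher and 1 lower. Either fit leaves a single vitrified whole embryo, which is assumed to vary like the other groups, and the same holds for every value given without one of these embryos. Shares over all genes are not given for such fits. At the 3 other scalings the split was 18 and 3 with scaling to listed-gene reads (21.0% and 4.31% of all genes), 8 and 7 under median-ratio scaling (10.6% and 6.99%), and 13 and 5 under quantile normalization (8.68% and 6.14%).

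**Figure D1:**
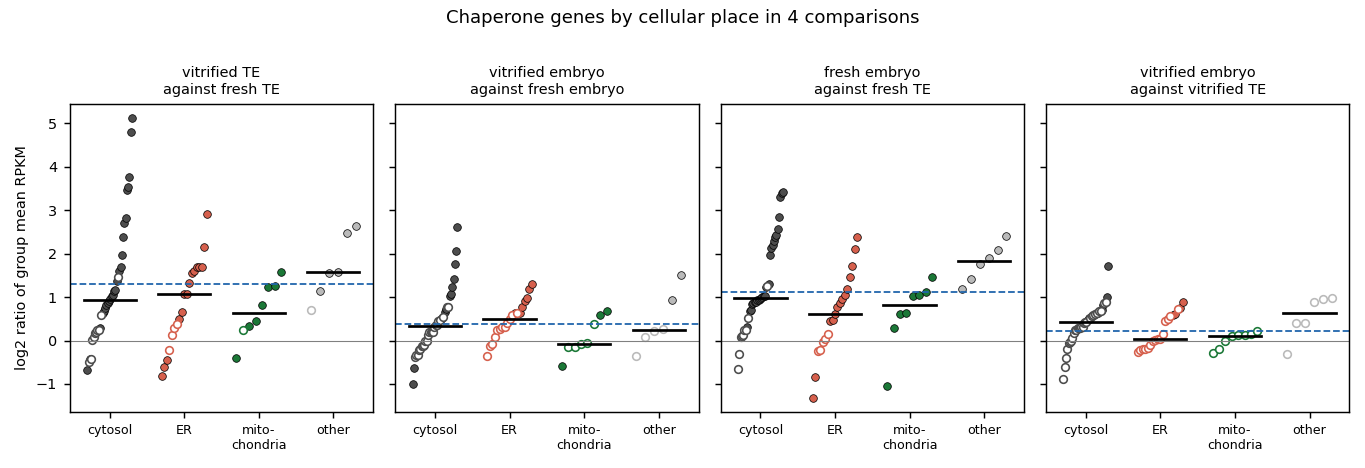
Log2 ratio of group mean RPKM for each tested chaperone gene, in 4 comparisons (panels) and by cellular place (columns of points). Filled points passed the limma adjusted p of 0.05, open points did not, black bars are medians of a place and the dashed line is the median of all genes tested, at 1.29 for vitrified against fresh TE. The members of each place spread on both sides of the dashed line in vitrified against fresh TE, with 13 of 36 cytosolic, 8 of 19 ER and 1 of 8 mitochondrial members above it. The topmost cytosolic point there is HSPB6, set against 0 or 1 read in each fresh TE library.

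Cytosolic genes known to be inducible by heat lay on both sides of the median gene, whose ratio of vitrified to fresh TE was 2.446. HSPB1 and HSPA1A were above it, while HSP90AA1 at 2.08-fold, DNAJB1 at 1.61-fold and HSPH1 at 1.01-fold were below it. HSPB1 (chr25:34858435-34861075) encodes the small heat shock protein HSP27, which holds unfolding proteins without ATP. Its level was 270.1 to 360.1 (median 303) RPKM in vitrified TE, against 15.6, 12.05, 9.99, 10.6 and 7.76 in fresh TE. The groups were far apart, with a 27.95-fold ratio of means, which was 11.4 times the fold of the median gene (log2 change 4.71, SE 0.27, adjusted p = 2.7e-11), and the change held under all 4 scalings. In vitrified whole embryos HSPB1 stood at 242 and 165 RPKM, against 55.02 to 202 (median 115) in fresh ones. These groups overlapped and the change of 0.91 (95% interval 0.13 to 1.68, adjusted p = 0.071) did not pass. The log2 effect of vitrification in whole embryos minus that in TE was -3.81 (adjusted p = 9.5e-06), and this difference held under all 4 scalings. No other member was lower in that test under all 4 scalings.

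HSPA1A (chr23:27331773-27333699) encodes the stress-inducible HSP70 and has near-identical copies, so its reads may be those of more than 1 gene. It reached 8.195 to 22.6 (median 15.5) RPKM in vitrified TE, against 1.01, 1.04, 1.98, 2.07 and 1.24 in fresh TE. In whole embryos it stood at 18.4 and 40.98 RPKM after vitrification, against 4.74 to 19.4 (median 6.69) in fresh embryos. The TE groups were separate. In whole embryos, fresh embryo 2 lay above the lower of the 2 vitrified ones. HSPA1A rose 11.04-fold in TE (log2 change 2.73, SE 0.32, adjusted p = 4.1e-07) and 3.39-fold in whole embryos (1.71, SE 0.45, adjusted p = 0.0078), and both changes held under all 4 scalings. The change in whole embryos was 1.15 without vitrified whole embryo 2 and did not pass (adjusted p = 0.22). Its constitutive relative HSPA8 (chr15:34216278-34220706), which handles folding and clathrin uncoating in unstressed cells, had 476 to 835 (median 598) RPKM in vitrified TE and 576, 515, 565, 595 and 564 in fresh TE. The 2 vitrified whole embryos held 999 and 994 RPKM of HSPA8, against 608 to 823 (median 683) in fresh ones. The whole embryo groups did not overlap (0.52, SE 0.17, adjusted p = 0.025), although the call was lost with scaling to listed-gene reads, under median-ratio scaling, and without vitrified whole embryo 1 (adjusted p = 0.10) or 2 (adjusted p = 0.15). In TE the HSPA8 groups overlapped, and the change of 0.16 (95% interval -0.09 to 0.41, adjusted p = 0.23) turned in sign under the 3 other scalings.

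DNAJB1 (chr7:12366856-12370536), the HSP40 that pairs with inducible HSP70, had 14.8 and 18.2 RPKM in vitrified whole embryos, against 4.95 to 8.74 (median 5.81) in fresh ones. The groups were separate, and DNAJB1 rose 2.66-fold (1.29, SE 0.24, adjusted p = 0.00062), a change that held under all 4 scalings. In vitrified TE it had 8.699 to 16.8 (median 11.2) RPKM, against 7.66, 6.29, 9.48, 9.04 and 5.89 in fresh TE, with overlap. That change (0.61, SE 0.17, adjusted p = 0.0036) turned in sign under median-ratio scaling and quantile normalization and did not pass under scaling to listed-gene reads. DNAJA1, the housekeeping HSP40, held 6.23 ± 1.13 RPKM in vitrified TE and 5.29 ± 1.85 in fresh TE (SD, n = 7 and 5), and 10.04 ± 0.498 in vitrified and 10.8 ± 3.48 in fresh whole embryos (n = 2 and 6). Neither DNAJA1 difference passed.

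The 2 cytosolic HSP90 genes moved by unequal amounts. HSP90AA1, the more stress-responsive form, had 383 to 474 (median 421) RPKM in vitrified TE, against 189.6, 169, 222, 226 and 220.2 in fresh TE. HSP90AB1, the constitutive form, had 316 to 396 (median 368) RPKM in vitrified TE, against 100.2, 88.1, 136, 142 and 129.6 in fresh TE. Neither gene's groups overlapped. HSP90AB1 rose 3.05-fold (1.62, SE 0.13, adjusted p = 3.4e-09), a change that held under all 4 scalings. The 2.08-fold difference of HSP90AA1 (1.06, SE 0.10, adjusted p = 1.6e-08) was 0.8501 times the fold of the median gene and turned in sign under median-ratio scaling. In whole embryos HSP90AA1 had 516 and 527 RPKM after vitrification, against 339 to 411 (median 357) in fresh ones, without overlap (0.51, SE 0.14, adjusted p = 0.0087). That call did not pass under median-ratio scaling, nor without vitrified whole embryo 2 (adjusted p = 0.093). HSPH1, the HSP110 that recycles HSP70, had 5.85 to 8.64 (median 6.67) RPKM in vitrified TE, against 7.35, 6.73, 7.38, 6.78 and 5.18 in fresh TE. The HSPH1 groups overlapped and the change was 0.01 (95% interval -0.24 to 0.25, adjusted p = 0.96), which was negative and past the threshold under the 3 other scalings.

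**Figure D2:**
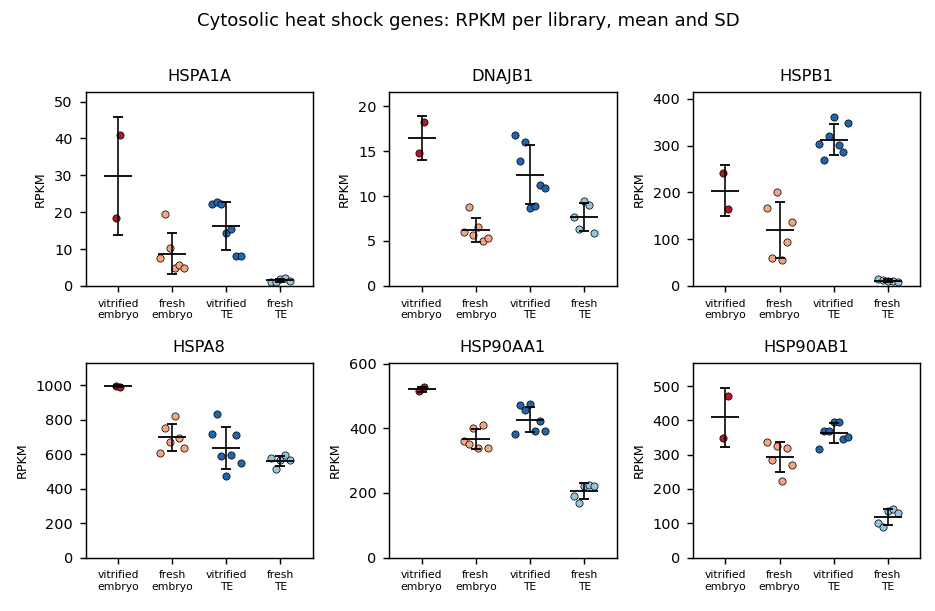
Levels of 6 cytosolic heat shock genes in RPKM (linear axes from 0). Each point is a library, horizontal marks are group means and bars are SDs, for 2 vitrified embryo, 6 fresh embryo, 7 vitrified TE and 5 fresh TE libraries. HSPB1 reached 270.1 to 360.1 (median 303) RPKM in vitrified TE and at most 15.6 in fresh TE, while HSPA8 overlapped between these groups.

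HSPB6 and DNAJB5, which had few reads, rose in both kinds of sample. In fresh TE a library held 0 or 1 read of HSPB6 and 1 to 4 of DNAJB5. Both genes passed the read filter only through other groups. The small heat shock gene HSPB6, which encodes HSP20, had 0.565 to 1.84 (median 1.11) RPKM in vitrified TE, against 0.0643, 0, 0, 0.0545 and 0.0593 in fresh TE, where a library held 0 or 1 read, so no fold is given (1.08, SE 0.15, adjusted p = 2.0e-06). In whole embryos it had 1.27 and 3.32 RPKM after vitrification, against 0.195 to 0.613 (median 0.3704) in fresh ones (1.20, SE 0.20, adjusted p = 0.00033). The J protein gene DNAJB5 had 0.582 to 1.21 (median 0.752) RPKM in vitrified TE, against 0.0834, 0.0643, 0.0164, 0.0531 and 0.07701 in fresh TE (0.76, SE 0.08, adjusted p = 8.2e-08). It had 0.947 and 1.44 RPKM in vitrified whole embryos, against 0.106 to 0.404 (median 0.301) in fresh ones (0.76, SE 0.11, adjusted p = 9.8e-05). None of these 4 pairs of groups overlapped, and all 4 changes held under all 4 scalings. Against fresh TE these results are no added support, because both genes passed the read filter only through other groups.

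The vitrification comparisons in TE and in whole embryos share no library. As deposited, 20 members were higher and none lower in both, where 24.4% and 1.60% of all genes were. Under all 4 scalings 5 members were higher and none lower in both (5.85% and 1.29% of all genes). They were HSPA1A, HSPB6, DNAJB5, PDIA4 and DNAJB12, the last named after its values were seen. HSPB6 and DNAJB5 passed the read filter only through groups other than fresh TE. DNAJB12, a J protein of the ER membrane that takes part in the disposal of misfolded membrane proteins, had 0.564 to 0.9998 (median 0.697) RPKM in vitrified TE, against 0.0856, 0.132, 0.219, 0.182 and 0.227 in fresh TE (0.58, SE 0.07, adjusted p = 5.9e-07). It had 1.01 and 1.29 RPKM in vitrified whole embryos, against 0.206 to 0.601 (median 0.512) in fresh ones (0.56, SE 0.10, adjusted p = 0.00049). A pair of cytosolic J protein genes, also named after their values were seen, were lower in vitrified whole embryos under all 4 scalings. DNAJC7, which links HSP70 and HSP90, had 0.672 and 0.7498 RPKM, against 0.935 to 1.24 (median 1.14) in fresh ones (-0.30, SE 0.09, adjusted p = 0.018). DNAJC24, an enzyme partner in diphthamide synthesis, had 0.277 and 0.215 RPKM, against 0.389 to 0.614 (median 0.476) in fresh ones (-0.26, SE 0.06, adjusted p = 0.0026). Neither gene's groups overlapped in whole embryos. Neither passed without vitrified whole embryo 2, at adjusted p-values of 0.089 for DNAJC7 and 0.074 for DNAJC24, and DNAJC7 did not pass without vitrified whole embryo 1 either (adjusted p = 0.12).

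The 8 subunits of TRiC, which stand side by side in equal number in the complex, changed unequally at the RNA level. In vitrified against fresh TE their ratios of means ran from 0.628 for CCT4 to 11.6 for CCT6A. As deposited, 6 subunits were higher and 2 lower, against 4 and 3 with scaling to listed-gene reads and 1 and 4 under both other scalings. Over all genes the shares were 69.0% and 6.66% as deposited and 49.4% and 15.7% with scaling to listed-gene reads. They were 35.2% and 27.4% under median-ratio scaling and 26.2% and 38.7% under quantile normalization. CCT6A (chr25:27985731-27993652) had 8.96 to 16.2 (median 13.9) RPKM in vitrified TE, against 0.8504, 0.568, 1.63, 1.06 and 1.48 in fresh TE. The groups were separate and the change (2.71, SE 0.25, adjusted p = 1.3e-08) held under all 4 scalings. CCT4 (chr11:60397422-60410036) had 14.9 to 19.9 (median 18.6) RPKM in vitrified TE, against 23.03, 21.3, 29.5, 32.2 and 34.3 in fresh TE. It fell without overlap (-0.63, SE 0.14, adjusted p = 0.00061), and CCT8 fell with overlap to 13.2 ± 1.22 RPKM in vitrified TE, against 17.9 ± 2.95 in fresh TE (-0.39, SE 0.11, adjusted p = 0.0030). Both of these changes held under all 4 scalings, as did those of all genes lower as deposited.

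The other 5 subunits lay between these. TCP1 had 29.1 ± 3.47 RPKM in vitrified TE, against 17.5 ± 1.64 in fresh TE (SD, n = 7 and 5, 1.67-fold). CCT2, CCT3 and CCT7 were 2.05-, 1.88- and 2.25-fold higher in vitrified TE as deposited, all below the 2.446-fold of the median gene. CCT5 was 1.21-fold higher. Of these 5, only CCT7 kept its sign under every scaling, and none passed under all of them. In whole embryos CCT6A had 22.03 and 29.98 RPKM after vitrification, against 4.18 to 17.7 (median 11.5) in fresh ones (1.26, SE 0.34, adjusted p = 0.0095). CCT5 had 24.6 and 39.1 RPKM in vitrified whole embryos, against 16.4 to 20.9 (median 19.6) in fresh ones (0.67, SE 0.16, adjusted p = 0.0036). The groups of both genes were separate, and neither call passed under median-ratio scaling or without vitrified whole embryo 2, where the adjusted p was 0.15 for CCT6A and 0.23 for CCT5. In TE the call of CCT5 was lost without fresh TE library 2 (adjusted p = 0.063) or 5 (0.19, adjusted p = 0.13). The remaining 6 subunits did not pass in whole embryos, where the 8 ratios of means ran from 0.768 to 2.37. The TCP1 span overlaps that of ACAT2 by 76 bp, and the counting rule for shared bases is not given in the sources used here.

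**Figure D3:**
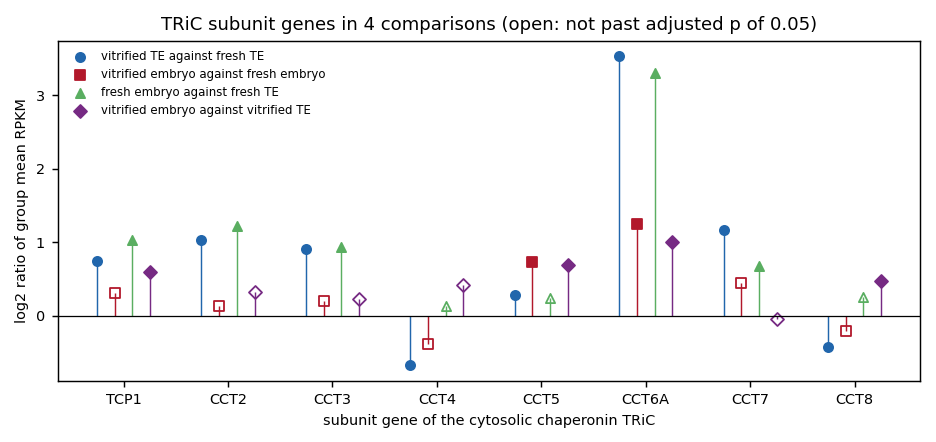
Log2 ratio of group mean RPKM for the 8 TRiC subunit genes in 4 comparisons (coloured markers). Filled markers passed the limma adjusted p of 0.05 and open ones did not. CCT6A has the highest ratio of the 8 in each comparison, 11.6-fold in vitrified against fresh TE, while CCT4 and CCT8 lie below 0 in that comparison.

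Of the 16 tested J protein genes of the cytosol, 10 were higher and 6 did not pass in vitrified against fresh TE, where 69.0% of all genes were higher. In vitrified against fresh whole embryos 4 were higher and 2 lower (26.9% and 3.94% of all genes), and in fresh whole embryos against fresh TE 13 were higher and 3 did not pass (60.0% of all genes higher). DNAJC17, a nuclear J protein tied to splicing, was 0.137 to 0.305 (median 0.257) RPKM in vitrified TE, against 0.0634, 0.0543, 0.0873, 0.0448 and 0.0975 in fresh TE. Its groups were separate, although the small log2 change (0.20, SE 0.04, adjusted p = 0.00046) did not pass under median-ratio scaling and quantile normalization. Under all 4 scalings DNAJC5, DNAJC8 and DNAJC9 of the cytosol, DNAJC4, DNAJC22 and DNAJC25 of no single place, DNAJC14 of the ER membrane and the HSP70 exchange factor HSPBP1 were also higher in vitrified TE, named here after their values were seen. Their log2 changes ran from 0.59 for DNAJC22 to 1.35 for DNAJC9. In fresh TE a library held 1 to 4 reads of DNAJC22 and 1 to 10 of DNAJC4. These 2 genes passed the read filter only through other groups, so their fresh TE values lie near the floor.

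The tested members whose changes in TE are not described elsewhere were the J protein genes DNAJA2, DNAJB2, DNAJB4, DNAJB6, DNAJB14, DNAJC1, DNAJC2, DNAJC7, DNAJC13, DNAJC16, DNAJC18, DNAJC21, DNAJC24, DNAJC27 and DNAJC28, the HSP70 genes HSPA13 and HSPA14, the HSP110 gene HSPA4, HSPB8, HSPB11, CCT6B and PDIA6. Their log2 changes in vitrified against fresh TE ran from -0.08 for DNAJC24 to 0.72 for HSPA4. In that comparison 12 of these 22 were higher as deposited (69.0% of all genes). None passed under all 4 scalings in either direction, since every member that did is described elsewhere. The HSPA14 span overlaps that of an unnamed gene by 1564 bp.

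HSPA5 (chr11:96115572-96119307) encodes BiP, the ER HSP70 that also holds the stress sensors of the unfolded protein response. It had 54.5 to 141 (median 96.7) RPKM in vitrified TE, against 8.67, 8.83, 16.2, 16.9 and 18.4 in fresh TE. In whole embryos it had 169 and 116 RPKM after vitrification, against 60.3 to 85.4 (median 68.8) in fresh ones. Neither pair of groups overlapped. HSPA5 rose 7.52-fold in TE (2.83, SE 0.23, adjusted p = 3.0e-09), which held under all 4 scalings. In whole embryos it was 1.98-fold higher (0.96, SE 0.32, adjusted p = 0.029), a call that did not pass under median-ratio scaling, nor without vitrified whole embryo 1 (adjusted p = 0.25) or 2 (adjusted p = 0.071). HSP90B1, which encodes the ER HSP90 GRP94, had 29.4 to 57.2 (median 42.96) RPKM in vitrified TE, against 12.9, 10.7, 17.1, 17.5 and 17.1 in fresh TE. It rose 2.95-fold without overlap (1.49, SE 0.18, adjusted p = 4.6e-07), and this held under all 4 scalings. In whole embryos HSP90B1 had 53.3 and 37.5 RPKM after vitrification, against 21.5 to 36.6 (median 29.9) in fresh ones, and the change of 0.63 (95% interval 0.11 to 1.15, adjusted p = 0.063) did not pass.

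Calreticulin and calnexin retain glycoproteins in the ER until they are folded. CALR (chr7:13731958-13735789) had 185 and 224 RPKM in vitrified whole embryos, against 99.9 to 122 (median 106) in fresh ones. It had 178 to 234 (median 203) RPKM in vitrified TE, against 93.4, 92.2, 113, 113 and 74.9 in fresh TE. Both vitrified groups lay wholly above their fresh counterparts. In whole embryos the 1.88-fold rise (0.90, SE 0.15, adjusted p = 0.00029) held under all 4 scalings, and in TE the 2.11-fold difference (1.08, SE 0.11, adjusted p = 4.4e-08) turned in sign under median-ratio scaling. CANX, the membrane-bound partner, held 10.98 ± 0.818 RPKM in vitrified TE and 7.75 ± 0.835 in fresh TE (SD, n = 7 and 5), a 1.42-fold difference (0.46, SE 0.10, adjusted p = 0.00068) that turned in sign under scaling to listed-gene reads, median-ratio scaling and quantile normalization. In whole embryos CANX held 9.62 ± 1.73 RPKM after vitrification and 7.98 ± 1.33 in fresh ones (n = 2 and 6), and the change of 0.24 (95% interval -0.06 to 0.55, adjusted p = 0.21) did not pass.

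The protein disulfide isomerases did not move as one. PDIA4 (chr4:112989514-113006467), known as ERp72, had 4.66 to 6.41 (median 5.59) RPKM in vitrified TE, against 1.92, 1.82, 1.87, 1.93 and 1.58 in fresh TE. It had 5.02 and 6.36 RPKM in vitrified whole embryos, against 2.16 to 2.73 (median 2.504) in fresh ones. The groups were separate in both. PDIA4 rose 3.04-fold in TE (1.21, SE 0.09, adjusted p = 4.7e-10) and 2.29-fold in whole embryos (0.94, SE 0.12, adjusted p = 4.1e-05), under all 4 scalings, and its p in whole embryos was the smallest of the 69 members.

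PDIA3, known as ERp57, which acts on the clients of CALR and CANX, had 7.09 to 14.5 (median 9.596) RPKM in vitrified TE, against 6.34, 6.03, 6.997, 6.84 and 8.49 in fresh TE. In whole embryos it had 18.2 and 14.7 RPKM after vitrification, against 8.28 to 10.9 (median 9.54) in fresh ones. Only the whole embryo groups were separate (0.72, SE 0.20, adjusted p = 0.011), and that call did not pass under median-ratio scaling and quantile normalization, nor without vitrified whole embryo 1 (adjusted p = 0.12). In TE the change (0.55, SE 0.14, adjusted p = 0.0019) turned in sign under scaling to listed-gene reads, median-ratio scaling and quantile normalization. The PDIA3 span overlaps CATSPER2 by 540 bp on the other strand, so a part of its reads may belong to that gene. PDIA6, known as P5, had 18.4 and 12.2 RPKM in vitrified whole embryos, against 8.85 to 11.2 (median 9.74) in fresh ones (0.57, SE 0.17, adjusted p = 0.016). That call did not pass under median-ratio scaling and quantile normalization, nor without vitrified whole embryo 1, where the change was 0.30 (adjusted p = 0.31). PDIA5 ran the other way in TE, with 0.226 to 0.337 (median 0.287) RPKM in vitrified TE, against 0.427, 0.449, 0.359, 0.383 and 0.326 in fresh TE. It fell (-0.11, SE 0.03, adjusted p = 0.00093) under all 4 scalings although the groups overlapped. In whole embryos PDIA5 had 0.255 and 0.213 RPKM after vitrification, against 0.134 to 0.186 (median 0.154) in fresh ones, and the change of 0.09 (95% interval 0.01 to 0.17, adjusted p = 0.067) did not pass. The effect of vitrification was higher in whole embryos than in TE by 0.21 (adjusted p = 0.0023) under all 4 scalings.

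A pair of ER J proteins that serve BiP were lower in vitrified TE. DNAJB11 (chr1:81234018-81252217), known as ERdj3, binds unfolded clients in the ER lumen. It had 4.99 to 6.02 (median 5.67) RPKM in vitrified TE, against 10.2, 8.86, 10.2, 10.2 and 9.68 in fresh TE. It fell without overlap (-0.71, SE 0.11, adjusted p = 7.3e-06). The call held under all 4 scalings, as it did for every gene lower as deposited. DNAJC10, known as ERdj5, reduces disulfide bonds of proteins sent for degradation. It had 0.938 to 1.37 (median 1.12) RPKM in vitrified TE, against 1.73, 1.51, 1.900, 1.83 and 1.69 in fresh TE, and also fell without overlap under all 4 scalings (-0.36, SE 0.07, adjusted p = 0.00023). In whole embryos DNAJB11 had 5.09 and 4.93 RPKM after vitrification, against 4.35 to 8.09 (median 5.07) in fresh ones, and the change of -0.09 (95% interval -0.40 to 0.23, adjusted p = 0.69) did not pass. The effect of vitrification on DNAJB11 was higher in whole embryos than in TE by 0.63 (adjusted p = 0.013) under all 4 scalings, but not without vitrified whole embryo 1 (adjusted p = 0.061). DNAJB9, known as ERdj4, had 18.1 ± 3.43 RPKM in vitrified TE and 16.7 ± 2.31 in fresh TE, and DNAJC3, known as p58IPK, had 1.27 ± 0.1305 RPKM in vitrified TE and 1.48 ± 0.292 in fresh TE (SD, n = 7 and 5). Neither passed as deposited, at 0.10 (95% interval -0.19 to 0.39, adjusted p = 0.52) and -0.12 (95% interval -0.30 to 0.06, adjusted p = 0.21), and both were lower in vitrified TE past the threshold at the 3 other scalings. Over the 19 ER members, 12 were higher and 3 lower in TE as deposited, against 9 and 6 with scaling to listed-gene reads and 6 and 9 under both other scalings. In whole embryos 7 ER members were higher and 12 did not pass as deposited and with scaling to listed-gene reads, while 3 were higher and 1 lower under median-ratio scaling and 4 and 1 under quantile normalization. At these 4 scalings in turn, the shares over all genes in TE were 69.0% and 6.66%, 49.4% and 15.7%, 35.2% and 27.4%, and 26.2% and 38.7%. In whole embryos they were 26.9% and 3.94%, 21.0% and 4.31%, 10.6% and 6.99%, and 8.68% and 6.14%.

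**Figure D4:**
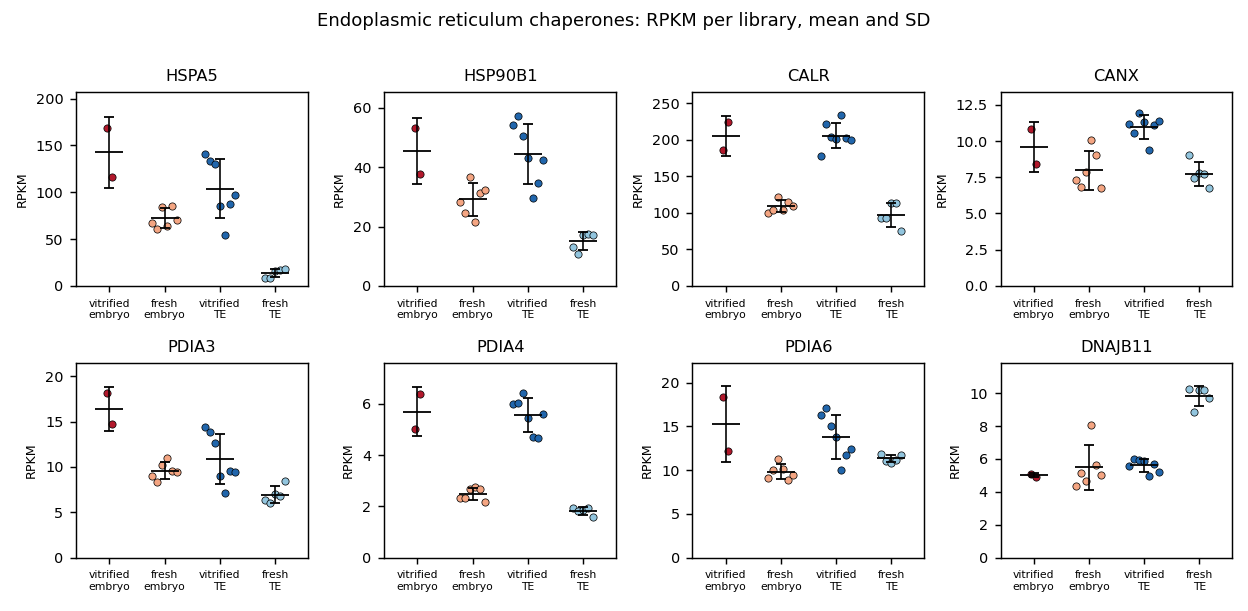
Levels of 8 ER folding genes in RPKM (linear axes from 0). Points are libraries, marks are group means and bars SDs, for 2 vitrified embryo, 6 fresh embryo, 7 vitrified TE and 5 fresh TE libraries. HSPA5 and PDIA4 are higher in each vitrified group than in its fresh counterpart without overlap, and DNAJB11 is highest in fresh TE, at 10.2, 8.86, 10.2, 10.2 and 9.68 RPKM.

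Among the 7 vitrified TE libraries several of these genes varied together. In library order, HSPA5 had 141, 133, 130.2, 85.2, 54.5, 87.05 and 96.7 RPKM. PDIA3 had 14.5, 13.8, 12.6, 9.02, 7.09, 9.596 and 9.39 RPKM, and HSPA1A had 22.3, 22.6, 22.3, 14.3, 15.5, 8.195 and 8.24 RPKM. In each of these genes, and in HSP90B1, PDIA6, DNAJB1 and CCT6A, libraries 1, 2 and 3 held the highest values. HSPD1 was lowest in libraries 1 to 3, with 47.9, 55.3, 59.1, 59.6, 62.6, 75.9 and 62.1 RPKM. Other members were ordered otherwise. CALR was lowest in library 1, at 178 RPKM, and highest in library 5, at 234. HSPB1 was highest in library 4, at 360 RPKM, and CCT7 in library 5, at 48.9. The genes of this pattern were picked after their values were seen. Members with and without it were not counted, and it was not tested.

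The 8 mitochondrial members had a median ratio of means of 1.55 in vitrified against fresh TE, where the cytosolic median was 1.91, the ER median 2.10 and that of all genes 2.446. HSPD1 encodes HSP60, the chaperonin of the matrix, and HSPE1 its lid HSP10. Their genes stand head to head 151 bp apart (chr2:86438979-86449373 and chr2:86449525-86451565) and are known to share a promoter. HSPE1 had 382 and 401 RPKM in vitrified whole embryos, against 501 to 634 (median 595) in fresh ones. It fell without overlap to 0.667 times the level in fresh embryos (-0.58, SE 0.17, adjusted p = 0.014), although this did not pass under quantile normalization, nor without vitrified whole embryo 1 (adjusted p = 0.083) or 2 (adjusted p = 0.089). HSPD1 had 52.8 and 53.2 RPKM in vitrified whole embryos, against 51.4 to 69.1 (median 58.8) in fresh ones, with overlap, and the change of -0.14 (95% interval -0.48 to 0.20, adjusted p = 0.54) did not pass. In TE, HSPD1 had 47.9 to 75.9 (median 59.6) RPKM after vitrification, against 50.4, 44.4, 52.7, 52.99 and 39.2 in fresh TE. HSPE1 had 277 to 392 (median 332) RPKM in vitrified TE, against 228, 225, 339.6, 343 and 283 in fresh TE. Both TE pairs overlapped, HSPD1 at 1.26-fold (0.32, SE 0.12, adjusted p = 0.016) and HSPE1 at 1.18-fold with a log2 change of 0.26 (95% interval 0.00 to 0.51, adjusted p = 0.060). Both turned to negative changes at the 3 other scalings, and the call of HSPD1 was lost without fresh TE library 5 (adjusted p = 0.057).

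HSPA9, which encodes mortalin, the matrix HSP70 that pulls proteins through the import channel, held 18.2 ± 2.51 RPKM in vitrified TE and 13.4 ± 2.001 in fresh TE (SD, n = 7 and 5). The 1.36-fold difference (0.41, SE 0.13, adjusted p = 0.0062) turned in sign under scaling to listed-gene reads, median-ratio scaling and quantile normalization. DNAJA3, its HSP40 partner, held 1.45 ± 0.1398 RPKM in vitrified TE and 0.612 ± 0.0806 in fresh TE, without overlap (0.60, SE 0.06, adjusted p = 1.1e-07), and that call turned in sign under quantile normalization and did not pass under median-ratio scaling. DNAJC19, of the import motor at the inner membrane, held 3.71 ± 0.605 RPKM in vitrified TE and 2.09 ± 0.397 in fresh TE, with a call (0.61, SE 0.11, adjusted p = 9.7e-05) that turned in sign under median-ratio scaling and quantile normalization and did not pass under scaling to listed-gene reads. DNAJC11, of the complex that shapes the cristae, held 0.716 ± 0.05396 RPKM in vitrified TE and 0.241 ± 0.0355 in fresh TE (0.47, SE 0.04, adjusted p = 1.6e-08), a call that did not pass under quantile normalization. DNAJC15, a relative of DNAJC19, held 0.183 ± 0.0373 RPKM in vitrified TE and 0.0771 ± 0.0141 in fresh TE (0.13, SE 0.03, adjusted p = 0.00091), which turned in sign under quantile normalization and did not pass under median-ratio scaling. DNAJC30, of the mitochondrial J proteins, was lower. It had 1.57 to 3.02 (median 2.02) RPKM in vitrified TE, against 3.304, 3.06, 2.599, 2.43 and 2.54 in fresh TE, and fell under all 4 scalings with overlapping groups (-0.29, SE 0.12, adjusted p = 0.032). Its reads were few, with 22 to 38 in a vitrified TE library, 25 to 30 in fresh TE and 15 to 26 in fresh whole embryos. Without fresh TE library 1 or 2 DNAJC30 did not pass (adjusted p = 0.089 and 0.072), nor with the near-identical libraries averaged (adjusted p = 0.094). As deposited 6 of the 8 were higher and 1 lower in TE, against 3 and 3, 1 and 4, and 0 and 4 with scaling to listed-gene reads, under median-ratio scaling and under quantile normalization. Over all genes the shares were 69.0% and 6.66% as deposited, then 49.4% and 15.7%, 35.2% and 27.4%, and 26.2% and 38.7%. In whole embryos DNAJA3 held 1.43 ± 0.417 RPKM after vitrification and 0.949 ± 0.105 in fresh ones (n = 2 and 6). DNAJC11 held 0.786 ± 0.134 RPKM after vitrification and 0.488 ± 0.0830 in fresh ones. Both were called higher there as deposited, but not under all 4 scalings.

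**Figure D5:**
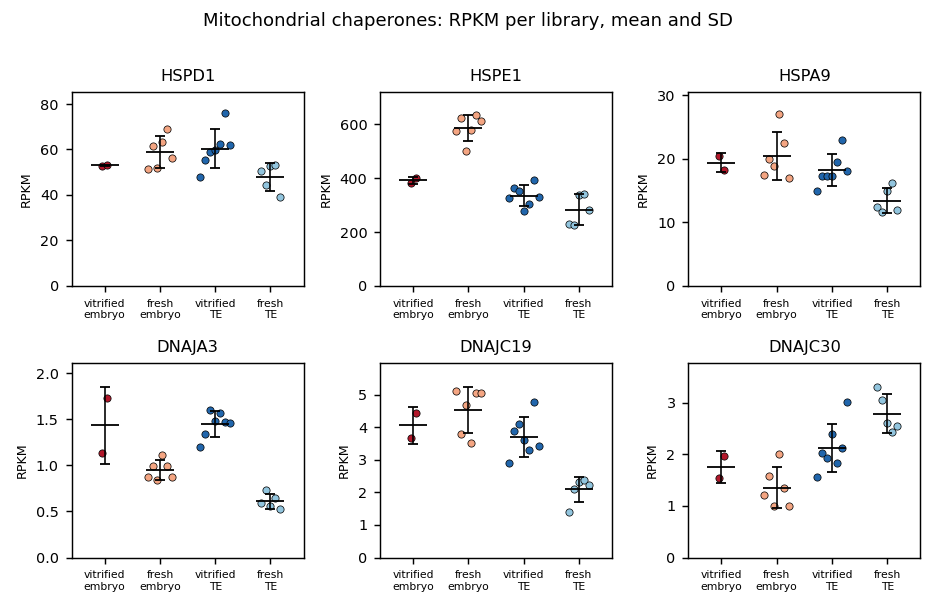
Levels of 6 mitochondrial chaperone genes in RPKM (linear axes from 0). Points are libraries, marks are group means and bars SDs, for 2 vitrified embryo, 6 fresh embryo, 7 vitrified TE and 5 fresh TE libraries. HSPE1 lies lower in vitrified than in fresh whole embryos without overlap, and DNAJC30 is highest in fresh TE.

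Fresh whole embryos were also set against fresh TE, a comparison that shares the fresh TE libraries with the one above. Of the members, 52 were higher and 3 lower in the whole embryo as deposited, with 60.0% and 5.97% over all genes, and groups did not overlap for 47 (51.4%). Under all 4 scalings 17 were higher and 3 lower (23.3% and 5.96%). Of the 633 genes lower as deposited, 632 were lower under all 4 scalings, so this adds little to a lower call. The split was 28 and 16 with scaling to listed-gene reads (39.7% and 16.0% of all genes), 19 and 22 under median-ratio scaling (30.0% and 25.0%), and 18 and 25 under quantile normalization (23.6% and 34.7%). HSPB1 had 55.02 to 202 (median 115) RPKM in fresh whole embryos, against 15.6, 12.05, 9.99, 10.6 and 7.76 in fresh TE (3.17, SE 0.27, adjusted p = 1.6e-08). HSPA5 had 60.3 to 85.4 (median 68.8) RPKM in fresh whole embryos, against 8.67, 8.83, 16.2, 16.9 and 18.4 in fresh TE (2.35, SE 0.24, adjusted p = 1.1e-07). CCT2, a TRiC subunit, had 22.4 to 30.1 (median 27.2) RPKM in fresh whole embryos, against 12.04, 9.99, 12.7, 11.8 and 11.1 in fresh TE (1.15, SE 0.09, adjusted p = 7.2e-09). HSPA14, an HSP70 bound to ribosomes, had 1.63 to 2.86 (median 2.08) RPKM in fresh whole embryos, against 0.4805, 0.487, 0.528, 0.603 and 0.614 in fresh TE (1.01, SE 0.10, adjusted p = 4.8e-08). DNAJC25 had 2.600 to 4.16 (median 2.91) RPKM in fresh whole embryos, against 0.915, 0.732, 0.937, 1.19 and 0.947 in fresh TE (1.09, SE 0.10, adjusted p = 2.7e-08). None of these 5 genes' groups overlapped. All 5 were higher at every scaling, except that the call of CCT2 was lost under quantile normalization. HSPE1 was 2.07-fold higher in fresh whole embryos (1.07, SE 0.12, adjusted p = 5.8e-07), a call that did not pass under median-ratio scaling. The 3 members lower in fresh whole embryos under all 4 scalings were DNAJB11 (-0.76, SE 0.11, adjusted p = 7.4e-06), PDIA5 (-0.26, SE 0.03, adjusted p = 1.9e-07) and DNAJC30 (-0.69, SE 0.12, adjusted p = 5.2e-05).

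Between vitrified whole embryos and vitrified TE, 12 members were higher and 0 lower as deposited by limma, with 15.3% and 3.59% over all genes, and groups did not overlap for 24 (26.3%). Also 0 were lower at an unadjusted p under 0.05, and a fit of these 2 groups alone called 1 lower. Without vitrified whole embryo 2 the count of higher members was 1, and the count was 7 with scaling to listed-gene reads (8.47% of all genes), 1 under median-ratio scaling (3.24%) and 2 under quantile normalization (2.59%). DNAJB4, an HSP40 of muscle and other cells, was the 1 member higher under all 4 scalings, and none was lower (2.42% and 1.78% of all genes). It had 1.13 and 0.997 RPKM in vitrified whole embryos, against 0.218 to 0.467 (median 0.3304) in vitrified TE, without overlap (0.64, SE 0.11, adjusted p = 0.0024). CCT5 was 1.62-fold higher (0.64, SE 0.15, adjusted p = 0.011) and HSPA14 1.76-fold (0.50, SE 0.13, adjusted p = 0.013). HSPA8 was 1.56-fold higher (0.66, SE 0.17, adjusted p = 0.013), TCP1 1.51-fold (0.58, SE 0.13, adjusted p = 0.0078) and DNAJB9 1.68-fold (0.73, SE 0.19, adjusted p = 0.015), all without overlap as deposited, but none of these 5 calls passed under median-ratio scaling or without vitrified whole embryo 2, where adjusted p-values ran from 0.096 for DNAJB9 to 0.30 for CCT5. Without vitrified whole embryo 1 those of DNAJB9 (0.092), HSPA14 (0.059) and HSPA8 (0.055) did not pass. The summed epiblast markers stood at 75.3 to 99.7 RPKM in vitrified whole embryos and 13.3 to 41.9 in vitrified TE, and their part in these differences was not tested.

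Direct comparison of the vitrification effects (whole embryo minus TE) gave 2 members higher and 21 lower, with 3.98% and 28.4% over all genes. Only DNAJB11 and PDIA5, higher, and HSPB1, lower, held under all 4 scalings (3.72% and 10.8% over all genes). Without vitrified whole embryo 1 the count lower was 10. After HSPB1 the smallest p-values were those of CCT2 at -0.85, SE 0.16, adjusted p = 0.00049, HSP90AB1 at -1.14, SE 0.23, adjusted p = 0.0010 and DNAJC25 at -0.78, SE 0.16, adjusted p = 0.0015. These 3 differences kept their sign at every scaling, but none passed under median-ratio scaling. The split was 13 and 6 with scaling to listed-gene reads (9.22% and 16.5% of all genes), 15 and 3 under median-ratio scaling (14.0% and 13.2%), and 15 and 2 under quantile normalization (19.5% and 11.3%).

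Ratios of 2 members within a library, taken here as deposited, are not altered by a factor that multiplies the whole library, although quantile normalization does alter them. The 12 such ratios, chosen with the members' values known, were compared in 4 contrasts by exact two-sided permutation tests with adjustment over the 48 tests. In vitrified against fresh TE 8 of 12 passed by the exact test, each at an adjusted p of 0.013. In fresh whole embryos against the same fresh TE libraries 11 of 12 passed, at adjusted p-values of 0.013 to 0.044. Ratios of other gene pairs were not tested, so these counts have no background share beside them. Several of the 12 ratios share HSPA8, so they are not independent. With the near-identical fresh TE libraries averaged, the smallest unadjusted p that permutation can give in vitrified against fresh TE was 0.0167. All 8 stood at it. For fresh whole embryos against fresh TE, that smallest p was 0.0238. There HSPA9 to HSPA8 stood at 0.0714, and DNAJB1 to DNAJA1 and CCT4 to TCP1 at 0.0476. These p-values were not adjusted over the 48 tests, so no pass at the threshold can be read from them. The log2 ratio of HSPA1A to HSPA8 averaged -5.39 in vitrified TE and -8.65 in fresh TE. HSPB1 to HSPA8 averaged -1.02 in vitrified TE and -5.69 in fresh TE. HSPA5 to HSPA8 averaged -2.66 in vitrified TE and -5.42 in fresh TE. CCT6A to TCP1 averaged -1.21 in vitrified TE and -4.06 in fresh TE, while CCT4 to TCP1 averaged -0.73 in vitrified TE and 0.66 in fresh TE. PDIA4 to PDIA6 averaged -1.30 in vitrified TE and -2.64 in fresh TE, and CALR to CANX 4.23 in vitrified TE and 3.64 in fresh TE. HSP90AA1 to HSP90AB1 averaged 0.23 in vitrified TE and 0.80 in fresh TE. None of these 8 pairs of groups overlapped. In fresh whole embryos the log2 ratio of HSPA1A to HSPA8 averaged -6.51, HSPB1 to HSPA8 -2.71, HSPA5 to HSPA8 -3.28 and CCT6A to TCP1 -1.82, each between the averages of vitrified and fresh TE. CALR to CANX, at 3.78 in fresh whole embryos, was the ratio that did not pass against fresh TE (exact p = 0.35). HSPE1 to HSPD1 averaged 2.48 in vitrified TE and 2.55 in fresh TE, with overlap (exact p = 0.61). With 2 vitrified whole embryos against 6 fresh ones no p below 0.0714 can arise, so none of the 12 could pass there. The whole embryo groups did not overlap for 6 of the 12. DNAJB1 to DNAJA1 averaged 0.71 in vitrified whole embryos and -0.78 in fresh ones, CALR to CANX 4.42 in vitrified and 3.78 in fresh ones, and CCT6A to TCP1 -0.77 in vitrified and -1.82 in fresh ones. These 3 ratios were higher after vitrification. HSPE1 to HSPD1 averaged 2.88 in vitrified whole embryos and 3.32 in fresh ones, HSPA9 to HSPA8 -5.68 in vitrified and -5.10 in fresh ones, and CCT4 to TCP1 -0.90 in vitrified and -0.24 in fresh ones, all lower after vitrification.

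Other genes of the same pathways were counted from lists chosen with earlier results known. Over all genes, 69.0% were higher and 6.66% lower in vitrified against fresh TE (35.2% and 27.4% under median-ratio scaling), and 26.9% and 3.94% in vitrified against fresh whole embryos (10.6% and 6.99%). Of 30 cytosolic co-chaperones and heat shock factors, 21 were higher and 4 lower in vitrified against fresh TE (11 and 12 under median-ratio scaling), and 13 were higher and 4 lower in vitrified against fresh whole embryos (4 and 4). The nucleotide exchange factor BAG2 held 19.9 ± 1.76 RPKM in vitrified TE and 3.37 ± 0.193 in fresh TE (SD, n = 7 and 5), and STIP1, which hands clients from HSP70 to HSP90, held 14.9 ± 1.39 RPKM in vitrified TE and 2.01 ± 0.345 in fresh TE. Of 32 tested ER folding enzymes and genes of the unfolded protein response, 26 were higher and 6 did not pass in vitrified TE (16 higher and 8 lower under median-ratio scaling), and 13 were higher and 19 did not pass in vitrified whole embryos (4 higher and 1 lower). PPP1R15A, which reverses the translation block of stressed cells, held 11.8 ± 3.098 RPKM in vitrified TE and 0.261 ± 0.127 in fresh TE. DDIT3, the stress transcription factor CHOP, held 28.6 ± 5.28 RPKM in vitrified TE and 4.15 ± 0.522 in fresh TE. Of 18 genes of the mitochondrial import motor, proteases and stress response, 15 were higher and 1 lower in vitrified TE (4 and 4 under median-ratio scaling). TIMM44, which anchors HSPA9 to the import channel, held 3.84 ± 0.519 RPKM in vitrified TE and 0.941 ± 0.289 in fresh TE. The 5 genes named here were each among the 3 smallest p-values of their list in vitrified against fresh TE. Their limma adjusted p, between 7.0e-13 and 1.9e-09 as deposited, follows from that choice and is no added support.

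Across the 4 groups, vitrified whole embryos had the highest mean for 36 of the 69 tested members (49.2% of all genes tested), fresh whole embryos for 16, vitrified TE for 13 and fresh TE for 4. Fresh TE had the lowest mean for 57 of the 69, where the share over all genes was 78.0%. By place, vitrified whole embryos led for 20 of 36 cytosolic and 10 of 19 ER members, and fresh whole embryos for 4 of 8 mitochondrial ones. These orders describe means and carry no test.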

How the data were processed

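RNA of 20 samples was sequenced: 2 vitrified whole embryos, 6 fresh whole embryos, 7 vitrified TE and 5 fresh TE samples. The submitters' processing notes name FastQC, STAR 2.5.3a, Partek and the UMD3.1 build, without their order or settings. The values deposited by the authors are RPKM with 0.01 added, on each gene's genomic span including introns. The unit is read from the values, since no header names it. After removing 0.01, 94.5 to 95.8% of values under 1000 reads came out as whole reads within 0.1 reads. Reads of intronic or antisense origin may count toward a gene, and whether strand was used is not given in the sources used here.

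Levels were analysed as log2(RPKM + 1) with limma 3.58.1 in R 4.3.3 (4 group means in a single fit, trend and robust moderation with statmod 1.5.0), over 10599 genes with at least 10 reads in at least 2 libraries, with Benjamini-Hochberg adjustment and a threshold of 0.05. The other scalings were to each library's listed-gene reads, median-ratio and quantile. The pseudocount, the filter, the samples fitted, averaging of near-identical fresh TE libraries, a replicate block and leaving out libraries were also varied. Ratios within a library were tested with scipy 1.17.1 and were added after the values had been seen. The fit was tested on simulated data. Figures were drawn with matplotlib 3.10.9 in Python 3.11.15.

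The members, the pathway lists and the tests were chosen with earlier results of these data known. Named genes were the main members of each place, per place the 3 highest and 3 lowest called changes in vitrified against fresh TE, and the 4 smallest p-values of each other comparison. From each pathway list, up to 3 genes with the smallest p in vitrified against fresh TE were named. Other names are marked as chosen after their values were seen. Of the 82 members, 81 were found by symbol in the RefSeq gene table. Counting error alone limits genes of few reads, and no sequence is shown.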

Additional observations from a re-analysis of the deposited data

Results flagged for a closer look

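Over 126 groups of 4 to 10 samples, 5 single libraries lay far from the rest of their group, where chance marks about 1 group in 20. HSPA1A stood at 19.4 RPKM in fresh whole embryo 2, with the next library at 10.2. HSPH1 stood at 8.64 RPKM in vitrified TE library 6, with the next at 6.82. DNAJA1 stood at 8.55 RPKM in fresh TE library 5, with the next at 5.04. CCT7 stood at 29.4 RPKM in fresh whole embryo 5, with the next at 25.97. DNAJB11 stood at 8.09 RPKM in fresh whole embryo 4, with the next at 5.66.

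The effect of vitrification differed between whole embryos and TE for 16 members named in the report, by limma on the deposited scale. The values that follow are log2 effects in whole embryos minus those in TE. In the cytosol they were -3.81 for HSPB1, -1.45 for CCT6A, -1.14 for HSP90AB1, -0.85 for CCT2, -0.71 for CCT7, -0.67 for CCT3, -0.55 for HSP90AA1 and -0.50 for HSPA14. In the ER they were -1.86 for HSPA5, -0.86 for HSP90B1, 0.63 for DNAJB11 and 0.21 for PDIA5. In mitochondria they were -0.84 for HSPE1, -0.73 for DNAJC19 and -0.20 for DNAJC11, and DNAJC25 had -0.78. Adjusted p-values lay between 9.5e-06 and 0.041. Only HSPB1, DNAJB11 and PDIA5 passed under all 4 scalings. CCT3, CCT6A, CCT7, DNAJB11, DNAJC11, DNAJC19, HSP90AA1 and HSPA14 did not pass without vitrified whole embryo 1, at adjusted p-values of 0.061 to 0.30. HSP90AA1, HSP90B1 and HSPA14 did not pass without vitrified whole embryo 2 (0.053 to 0.22). Without fresh TE library 1 or 2, CCT7 and HSP90B1 did not pass (0.060 to 0.066), and DNAJC11 did not pass without fresh TE library 2, 3 or 5 (0.056 to 0.070). These effects use the fresh TE libraries that stood apart, whose part in them was not tested.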

How the results depend on the processing

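Against fresh TE, vitrified TE had 47 members higher and 6 lower as deposited, 34 and 18 with scaling to listed-gene reads, 21 and 28 under median-ratio scaling and 20 and 29 under quantile normalization. Vitrified against fresh whole embryos had 22 and 3, against 8 and 7 under median-ratio scaling and 13 and 5 under quantile normalization. Fresh whole embryos against fresh TE had 52 and 3, against 28 and 16, 19 and 22, and 18 and 25 under these 3 scalings in turn, with 6 lower when no filter on low values was used. Vitrified whole embryos had 12 members higher than vitrified TE, against 7, 1 and 2 at the 3 scalings, 7 with a pseudocount of 0.1 and 7 with no filter. The difference of the effects had 2 members higher and 21 lower, against 13 and 6, 15 and 3, and 15 and 2. Fits of only the groups compared gave 13 members higher in vitrified than in fresh whole embryos, and 6 higher and 1 lower in vitrified whole embryos than in vitrified TE. Leaving out each library in turn gave 46 to 48 higher and 6 to 7 lower members in vitrified against fresh TE, and 8 to 22 and 0 to 3 in vitrified against fresh whole embryos. It gave 50 to 53 and 3 to 3 in fresh whole embryos against fresh TE, 1 to 11 higher in vitrified whole embryos against vitrified TE, and 2 to 3 higher and 10 to 22 lower for the difference of the effects. The labels do not say whether replicate numbers pair the samples. The 22 same-numbered pairs correlated at -0.185 to 0.377, with 7 over 0.1. Pairs of unlike number were not compared, so pairing was not excluded. A replicate block gave 1 lower member in vitrified against fresh whole embryos, 4 higher in vitrified whole embryos against vitrified TE and 13 lower for the difference of the effects. The shares over all genes at the 4 scalings are given in the Results, and the cause of these changes was not tested.

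In vitrified against fresh TE, 16 of the 69 tested members turned in sign with scaling to listed-gene reads, 29 under median-ratio scaling and 35 under quantile normalization, and 12, 27 and 32 of these had passed under either setting. The log2 changes that follow are limited to genes of that kind whose change is described in the report. With scaling to listed-gene reads they were -0.12 in CANX, -0.34 in CCT5, -0.51 in DNAJB9, -0.47 in HSPA8, -0.18 in HSPA9, -0.30 in HSPD1, -0.37 in HSPE1, -0.58 in HSPH1 and -0.0135 in PDIA3. Under median-ratio scaling they were -0.0254 in CALR, -0.56 in CANX, -0.0764 in CCT2, -0.18 in CCT3, -0.79 in CCT5, -0.41 in DNAJB1, -0.96 in DNAJB9, -0.22 in DNAJC19, -0.0546 in HSP90AA1, -0.21 in HSPA4, -0.95 in HSPA8, -0.64 in HSPA9, -0.77 in HSPD1, -0.85 in HSPE1, -0.98 in HSPH1, -0.45 in PDIA3 and -0.37 in TCP1. Under quantile normalization they were -0.53 in CANX, -0.0016 in CCT2, -0.13 in CCT3, -0.74 in CCT5, -0.0209 in DNAJA3, -0.37 in DNAJB1, -0.90 in DNAJB9, -0.0447 in DNAJC15, -0.26 in DNAJC19, -0.25 in HSPA4, -0.60 in HSPA9, -0.39 in HSPD1, -0.98 in HSPH1, -0.42 in PDIA3 and -0.27 in TCP1. Differences of effects that turned were 0.0140 in HSP90AA1 with scaling to listed-gene reads, 0.0524 in CCT3, 0.0354 in CCT7 and 0.23 in HSP90AA1 under median-ratio scaling, and 0.12 in CCT3, 0.0953 in CCT7, 0.0113 in DNAJC11 and 0.13 in HSP90AA1 under quantile normalization. Among the checked changes of named genes, averaging the near-identical fresh TE libraries turned no sign. It lost the call of DNAJC30 in TE and the differences of effects of CCT7, DNAJC11, HSP90B1 and HSPA14 (adjusted p = 0.0502 to 0.094). With that averaging 45 members were higher in fresh whole embryos against fresh TE, against 52 as deposited. In vitrified whole embryos against vitrified TE 8 were higher, and 16 differences of effects were lower, against 12 and 21 as deposited. Of the 10599 genes tested, 5607, 1330 and 2478 were called in these ways with averaging, against 6364, 1617 and 3005 as deposited. Counting error limits genes of few reads most, such as HSPB6 and DNAJB5 in fresh TE.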
